A study of Oncorhynchus mykiss with 6 samples.

Results

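miR-33 was represented in the liver miRNA table of rainbow trout (Oncorhynchus mykiss) by 4 of 1427 small RNA sequences, taken as every row whose name holds miR-33 with no further digit after it. The rows are ssa-miR-33b-5p_R-1, ssa-miR-33b-3p, ssa-miR-33a-3p and ola-miR-33_R+3_1ss7AT, named after Atlantic salmon (ssa) and medaka (ola) miRNAs. The livers were of juvenile wild-type trout, with the strain recorded as Walbaum. A control group had 3 libraries (replicates 3, 4 and 6). It was compared with a group fasted for 4 days, also of 3 libraries (replicates 3, 4 and 5). All 6 libraries came from Trizol RNA of frozen liver and were read as small RNA. The labels do not state whether a library holds 1 fish or several, so p-values measure the spread between libraries, which may be technical.

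miR-33 is an intronic miRNA of vertebrates. In humans miR-33a lies within SREBF2, the gene of the transcription factor that drives cholesterol synthesis and uptake, and miR-33b within SREBF1, whose product drives fatty acid synthesis and responds to insulin. The 5p strand is the one usually taken as the guide in mammals, where it represses the cholesterol exporter ABCA1 and enzymes of fatty acid oxidation such as CPT1A. RefSeq's trout annotation (USDA_OmykA_1.1) lists genes with the symbols srebf1 and srebf2. Their transcripts were not measured, and whether the trout miR-33 hairpins lie in their introns was not analysed here.

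The sequences are shown because they set apart the arms, the paralogs and the length variants on which the values turn; each is written 5′ to 3′ with the seed, bases 2 to 8, in capitals.
ssa-miR-33b-5p_R-1: gTGCATTGtagttgcattgc
ssa-miR-33b-3p: cAATGTTCctgcagtgcaaga
ola-miR-33_R+3_1ss7AT: cAATGTTCctgcagtgcaagac
PC-3p-3978_206: cAATGTTCctgcagtgcaagat
ssa-miR-33a-3p: cAATGTGTctgcagtgcagta
PC-3p-1971_492: cAATGTGTctgcagtgcagtat
The row with the medaka name is miR-33b-3p with 1 more base, a C, at the 3′ end. The last letters also show that 2 rows without a miR-33 name, predicted small RNAs with the prefix PC, are miR-33b-3p and miR-33a-3p with an added 3′ T. These 2 rows were found after the values were seen, are not counted among the 4, and are given beside them. Whether the added base is encoded in the trout genome or added afterwards was not tested.

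The 5p row carries the seed TGCATTG, held at bases 2 to 8 by 1 row of the table, or 0.0701%. Its letters occur a second time in the same sequence, from base 13. miR-33b-3p and miR-33a-3p are identical at 17 of 21 positions and differ, counted from 1 at the 5′ end with the b base first, by T7G, C8T, A19G and G20T. The first 2 of these fall inside the seed, so that the paralogs have different 3p seeds, AATGTTC in 3 rows (0.21% of the table) and AATGTGT in 2 rows (0.14%). In both cases the only rows with that seed were the miR-33 sequences printed above. No row named miR-33a-5p was among those analysed. The 5p row is of the b paralog by name only, and whether it also holds 5p reads of the a paralog was not tested.

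miR-33b-3p was the main miR-33 sequence of trout liver. The authors' expected counts, which are not always whole numbers, were 1456, 239 and 420 for control replicates 3, 4 and 6, and 515, 413 and 532 for fasted replicates 3, 4 and 5, the order used for all values below. As CPM, a scale on which every library has the same total, here with TMM factors that allow for differences in composition, these were 393, 292 and 132 for the controls and 426, 321 and 370 after fasting. Control replicate 6 stood lowest, 2 fasted values lay inside the control range and 1 lay above it. The control mean was 272 ± 132 CPM and the fasted mean 372 ± 52.3 CPM (SD, n = 3), and the row ranked 82 of 1427 by mean CPM. Its neighbours in that order were ola-miR-101b-5p at 325 CPM and fru-miR-24-3p_R-2 at 322 CPM, gaps far inside the spread of each row. The tissue check, dre-miR-122_R-1, the miRNA that dominates vertebrate hepatocytes, was 1209 times as abundant as miR-33b-3p by mean CPM.

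miR-33a-3p, the same arm of the a paralog, had expected counts of 254, 40 and 138 for the controls and 71, 149 and 81 after fasting. Its CPM values were 68.6, 48.8 and 43.3 for the controls and 58.7, 116 and 56.3 after fasting. Fasted replicate 4 stood highest and the other 2 fasted libraries lay inside the control range. The control mean was 53.5 ± 13.3 CPM, the fasted mean 77.0 ± 33.8 CPM and the rank 155. It was lower than miR-33b-3p in 6 of 6 libraries. All miR-33 sequences are 20 to 22 nt long, so their CPM were set side by side without a length scaling. Whether different sequences were captured equally well was not tested, so comparisons between rows are of counts.

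miR-33b-5p, the arm with the seed known for repressing cholesterol export in mammals, was scarce in every library. Its expected counts were 34, 5 and 2.5 for the controls and 16.5, 1.5 and 27.5 after fasting. A count of 3, taken as the floor, corresponds to 0.810 to 3.66 CPM depending on the library. Control replicate 6 and fasted replicate 4 were below this floor, in both groups the lowest library. In CPM, fasted replicate 5 was highest at 19.5, while the highest control library, replicate 3, had 9.18. The control mean was 5.30 ± 4.33 CPM, the fasted mean 11.4 ± 9.09 CPM and the rank 307.

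ola-miR-33_R+3_1ss7AT, the miR-33b-3p sequence with an added C, had 21, 5 and 2 counts in the controls and 10, 3 and 6 after fasting. It ranked 358 and was the 1 member that did not have enough counts for the test. The 5p row exceeded it in 4 libraries, equalled it in 1 and was lower in 1, so the order of these scarcest rows is not set.

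**Figure D1:**
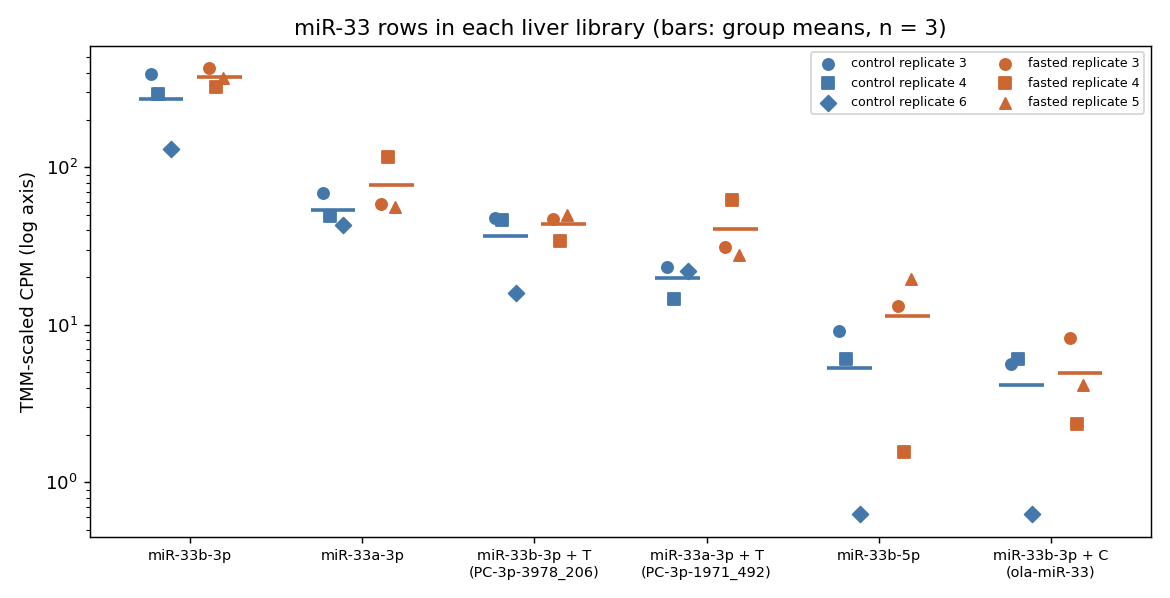
TMM-scaled CPM (log axis) of the 4 miR-33 rows and the 2 predicted rows with an added T, 1 point per library and a bar at each group mean (n = 3). miR-33b-3p lies between 132 and 426 CPM, while miR-33b-5p lies at or below 19.5 CPM in every library, and its points for control replicate 6 and fasted replicate 4 are under the 3-count floor.

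The 3p arm outnumbered the 5p arm in all 6 libraries. Of the counts of the 4 rows, the 5p row held 1.93, 1.73 and 0.444% in the control libraries, and 2.69, 0.265 and 4.25% in the fasted ones. The 95% Wilson interval, which covers counting error only, was 1.38 to 2.68% in the deepest library, control replicate 3, and 0.741 to 3.98% in control replicate 4. In the 4 libraries with at least 3 counts of the 5p row, miR-33b-3p counts were 19.4 to 47.8 times the 5p counts of the same library. Control replicate 6 and fasted replicate 4, with 2.5 and 1.5 counts of the 5p row, give no reliable fold.

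The log2 ratio of 5p to summed 3p CPM, with 1 CPM added to each, was -5.52, -5.61 and -6.76 for the controls and -5.12, -7.43 and -4.40 after fasting. The 3p sum took the named 3p rows of both paralogs without the added-T rows, while the 5p row is named after the b paralog alone. The highest and the lowest ratio were both in fasted libraries, so the groups overlapped, and the lowest of each group rests on the 5p counts under the floor. The means were -5.97 ± 0.690 and -5.65 ± 1.58 (SD, n = 3), a difference of 0.32. An exact two-sided permutation test gave p = 0.8, where 3 libraries against 3 cannot go below 0.1. The difference took the other sign without control replicate 6 (-0.080) and without fasted replicate 5 (-0.31).

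The balance of the paralogs varied between libraries within each group. The ratio of miR-33b-3p to miR-33a-3p counts was 5.73, 5.97 and 3.04 for the controls and 7.25, 2.77 and 6.57 after fasting. Control replicate 6 and fasted replicate 4 stood lowest in their groups, and the group means were 4.92 ± 1.63 and 5.53 ± 2.41 (SD, n = 3). With the added-T and added-C rows counted in, the means were 4.205 ± 1.70 for the controls and 4.145 ± 1.86 after fasting. Control replicate 6 and fasted replicate 4 were again lowest, at 2.27 and 2.01. These libraries also held the lowest 5p share of their group.

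The split of control replicate 6 and fasted replicate 4 from the rest was picked after the miR-33 ratios were seen. Some other measures followed it and some did not. Leucocyte markers (miR-142, miR-150, miR-155 and miR-223) took 0.101, 0.179 and 0.0825% of all counts in the controls and 0.280, 0.0714 and 0.269% after fasting. Erythrocyte markers (miR-451 and miR-144; no row named miR-486 was among those analysed) took 0.293, 0.358 and 0.172% in the controls and 0.349, 0.114 and 0.898% after fasting. Both marker sums were lowest, within each group, in control replicate 6 and fasted replicate 4. So were those of the endothelial and stromal markers, 5.17 and 5.67%, and the muscle markers, 0.00569 and 0.00834%. The other lists did not follow the split in both groups: epithelial markers were highest in control replicate 6 (0.199%) and lowest in fasted replicate 4 (0.150%). Neural markers were lowest in control replicate 4 (0.0856%) and fasted replicate 4 (0.147%), and hepatocyte markers lay mid-range in both libraries (39.1 and 38.7%). The table's counts as a share of mappable reads were 45.0, 56.4 and 61.0% for the controls and 15.1, 47.8 and 34.9% after fasting, highest within each group in these libraries. The part of these measures in the miR-33 ratios was not tested.

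Length variants also separated the paralogs. The row with an added T, PC-3p-1971_492, held 25.2, 22.3 and 33.8% of all miR-33a-3p reads in the controls and 34.6, 34.9 and 32.8% after fasting. For miR-33b-3p the added-T row, PC-3p-3978_206, held 10.7, 13.5 and 10.8% in the controls and 9.79, 9.57 and 11.8% after fasting. The share was higher for miR-33a-3p in 6 of 6 libraries, and the 95% Wilson intervals of the 2 shares overlapped in 1 of them, control replicate 4. This comparison was chosen after the values were seen and is given without a test. The added-C row held 0.423 to 1.77% of miR-33b-3p reads. Some counts of PC-3p-1971_492, like those of the 5p row, are not whole, so some of its reads were divided. Whether another row shares them is not known, and its share is less certain than that of PC-3p-3978_206.

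**Figure D2:**
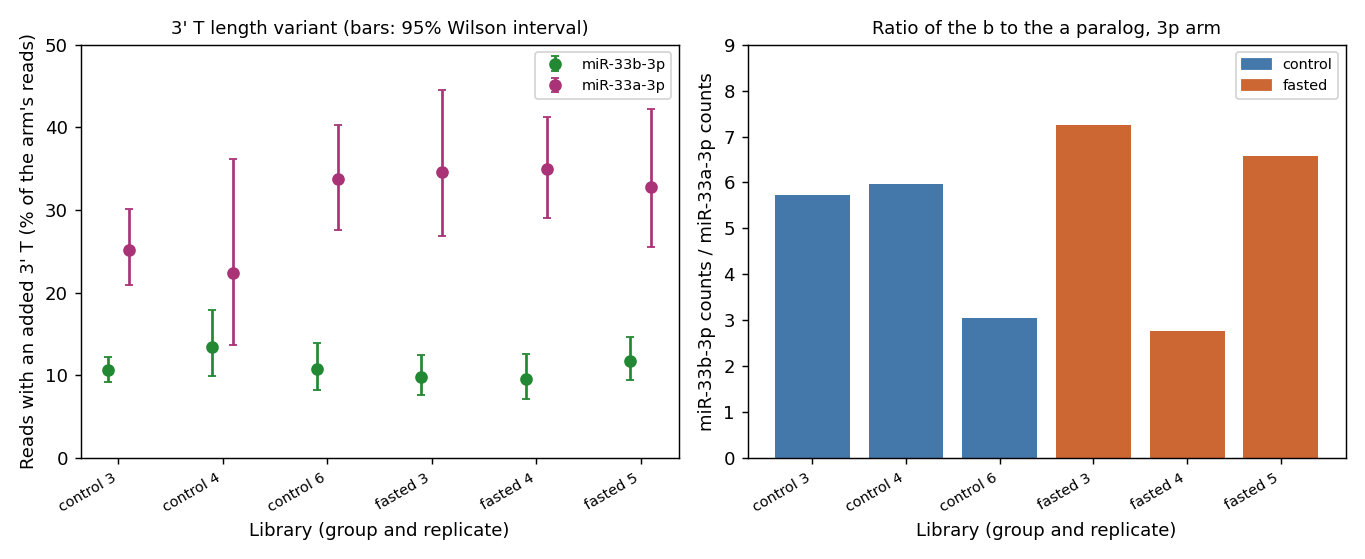
Left, the share of reads with an added 3′ T among miR-33b-3p and miR-33a-3p reads in each library, with 95% Wilson intervals; right, miR-33b-3p counts divided by miR-33a-3p counts, with bars coloured by group. The added-T share is 22.3 to 34.9% for miR-33a-3p and 9.57 to 13.5% for miR-33b-3p, and the ratio is lowest in control replicate 6 and fasted replicate 4.

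No miR-33 row passed the test between fasted and control liver, the comparison that asks whether 4 days without food alter its level. edgeR's quasi-likelihood test called 0 of 309 tested rows at a Benjamini-Hochberg adjusted p under 0.05, or 0%, so 0 of the 3 tested miR-33 rows stands against that background. At an unadjusted p under 0.05 there were 26 of 309 rows, or 8.41%, and 0 of the 3 miR-33 rows. DESeq2 called 4 rows, 1.29%, and 0 of miR-33. All 3 tested miR-33 rows had a log2 fold change above 0, as did 155 rows of the table, or 50.2%. Their median was 0.52, against 0.01 over all tested rows. With the replicate number as a block, which the labels do not tie to a shared source, miR-33b-5p turned to -0.14 and miR-33b-3p had 0.13. Control replicate 6 and fasted replicate 5 share no number with the other group. This fit therefore draws its fold changes from replicates 3 and 4.

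miR-33b-3p had 0.45 on the log2 scale, fasted minus control (SE 0.44; edgeR adjusted p = 0.724). Its 95% interval ran from -0.55 to 1.45, that is from 0.684 to 2.74 times the control level, so that both lower and higher levels lie inside it. miR-33a-3p had 0.52 (SE 0.41; edgeR adjusted p = 0.690), with an interval of 0.748 to 2.75 times the control level. The scarce miR-33b-5p had 1.12 (SE 0.98; edgeR adjusted p = 0.724) and an interval of 0.462 to 10.3 times, the widest of the 3. In each row the fasted and control libraries overlapped, while 54 of 309 tested rows, or 17.5%, had groups that did not.

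Single libraries set the size of these values. Without control replicate 6 the log2 fold change of miR-33b-3p was 0.12 and that of miR-33b-5p 0.53. The latter was 2.16 without control replicate 3, 1.63 without fasted replicate 4 and 0.60 without fasted replicate 5. Without control replicate 3 miR-33b-3p had 0.81. Without fasted replicate 4 that of miR-33a-3p was 0.086, and it was 0.87 without fasted replicate 5.

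Of the added-T rows, PC-3p-3978_206 had 0.27 (SE 0.47; edgeR adjusted p = 0.901) and PC-3p-1971_492 1.00 (SE 0.43; edgeR adjusted p = 0.557) on the log2 scale. The latter had 23.2, 14.7 and 21.9 CPM in the controls and 31.4, 62.3 and 27.8 CPM after fasting. Each fasted library lay above each control library, which was so for 27 of 309 tested rows, or 8.74%. Its unadjusted p was 0.0495, but without fasted replicate 4 the log2 fold change was 0.53 and the unadjusted p in the same edgeR fit 0.226. That was the highest unadjusted p over 14 alternatives, and the lowest was 0.00853 (edgeR with library totals). The value stayed above 0 in all 14, with edgeR adjusted p from 0.220 to 0.898. With the length variants of each 3p arm summed, an alternative chosen after seeing the data, the log2 fold change was 0.42 for miR-33b-3p and 0.66 for miR-33a-3p (edgeR adjusted p = 0.749 and 0.593).

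**Figure D3:**
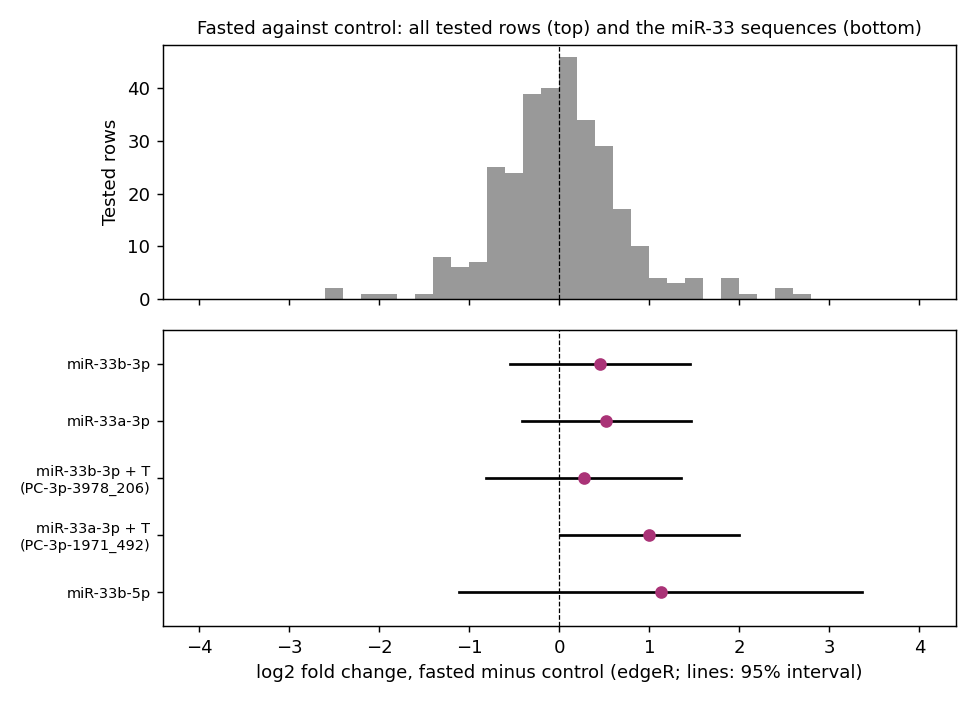
Top, the distribution of log2 fold changes (fasted minus control) of all 309 tested rows; bottom, the 3 tested miR-33 rows and the 2 added-T rows with edgeR's 95% intervals. The points lie between 0.27 and 1.12, and the intervals of the 3 miR-33 rows span 0.

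As a share of the table, unscaled for composition, the 4 rows together held 0.0420, 0.0294 and 0.0134% of the counts for the controls and 0.0830, 0.0395 and 0.0543% after fasting. Control replicate 3 lay above fasted replicate 4, so the groups overlapped by 1 pair of libraries. Fasted replicate 3, with the highest miR-33 share, had the lowest share of mappable reads in the table, 15.1%, and the group means of that share were 54.1 ± 8.20% for the controls and 32.6 ± 16.5% after fasting (SD, n = 3). Its part in the miR-33 values was not tested. In TMM-scaled CPM the sums were 476, 353 and 176 for the controls and 506, 441 and 450 after fasting. The scaling matters here: with library totals alone the median of all tested rows moved to 0.59, and miR-33b-3p had a log2 fold change of 1.05, or 0.47 above that median, against 0.44 above the median with TMM. In bulk liver, fewer cells of a type and less RNA per cell cannot be told apart.

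The libraries held 737686 to 4203708 table counts. Hepatocyte markers (miR-122, miR-192 and miR-194; no row named miR-802 or miR-885 was among those analysed) took 36.6 to 41.8% of them in control and 37.55 to 44.2% in fasted liver. Endothelial and stromal markers took 5.17 to 6.89% and 5.67 to 6.64%, and epithelial markers 0.0996 to 0.199% and 0.150 to 0.261%. Muscle markers took 0.00569 to 0.00824% in control and 0.00834 to 0.0296% in fasted liver, and neural markers 0.0856 to 0.111% and 0.147 to 0.214%. In both lists the groups did not overlap, but these shares are unscaled for composition. With library totals 256 of 309 tested rows had a log2 fold change above 0. In TMM-scaled CPM 54 of 309 single rows, or 17.5%, had groups that did not overlap. The same share was not computed for unscaled values or for sums over lists. The part of these marker lists in the miR-33 values was not tested.

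The rows whose profile over the 6 libraries was most like that of miR-33b-3p were its own added-T variant PC-3p-3978_206, dre-miR-34a, ssa-miR-26a-3p, dre-miR-107a-3p_R-1 and ola-miR-27d-3p_R+3. Likeness was the root-mean-square difference of row-centred log2 CPM over the 6 libraries. It was 0.189 for the variant, 0.221 for miR-34a, 0.275 for miR-26a-3p, 0.284 for miR-107a-3p and 0.304 for miR-27d-3p, against a median of 0.752 over 306 other tested rows. What these profiles share is a low value in control replicate 6: miR-34a had 3.76 CPM there against 14.7 to 23.2 CPM elsewhere, and miR-107a-3p 335 CPM against 468 to 814 CPM. The 6 points of each profile share the libraries and their scaling.

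Other miRNAs tied to cholesterol and lipid handling in mammals gave no row called by edgeR, which called 0 of all 309 tested rows. Rows called by DESeq2 were not counted for these lists. The cholesterol efflux list holds families reported to target ABCA1 (miR-10b, miR-20, miR-26, miR-27, miR-106, miR-128, miR-130, miR-144, miR-145, miR-148, miR-301, miR-302 and miR-758). Of its 44 tested rows 25 were above 0 and 19 below, with 0 called and a median log2 fold change of 0.07. Its lowest adjusted p by edgeR was 0.245, which was also the lowest over all 309 tested rows. At an unadjusted p under 0.05 there were 2 higher and 5 lower of these 44 rows, beside 15 higher and 11 lower of all 309.

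The most abundant row of each of its 4 most abundant families had a value below 0, though other rows of these families did not all do so. The list takes both arms of a family, so the most abundant row need not be the arm reported to target ABCA1. dre-miR-148, of a family known to target the LDL receptor and ABCA1 in mammals, had a control mean of 32934 ± 7571 CPM and a fasted mean of 16026 ± 12611 CPM (-1.04 on the log2 scale, SE 0.54). dre-miR-27c-3p had 4225 ± 2553 and 1794 ± 455 CPM (-1.24, SE 0.48), ssa-miR-145-3p_L+2R-1 -0.65 (SE 0.45) and ssa-miR-26a-5p -0.18 (SE 0.33). Their edgeR adjusted p-values were 0.606, 0.519, 0.618 and 0.901. The groups overlapped in all 4 rows, and the value of miR-26a-5p turned to 0.32 with library totals. Relative to the median of all tested rows, miR-26a-5p had -0.19 with TMM and -0.26 with library totals. Of the tested rows of each family, 0 of 3 were above 0 for miR-148, 1 of 9 for miR-27, 1 of 3 for miR-145 and 6 of 8 for miR-26. The miR-145 row above 0 was ola-miR-145_L+1R+3, named after its values were seen, at 0.65 (SE 0.34, edgeR adjusted p = 0.606). It is of the other arm than ssa-miR-145-3p_L+2R-1, and these 2 of the 3 tested miR-145 rows had values of opposite sign. Its control mean was 1841 ± 266 CPM and its fasted mean 2881 ± 886 CPM. Each fasted library lay above each control library, which was so for 27 of 309 tested rows, or 8.74%.

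The SREBP list holds families reported to target SREBF transcripts or their partners, or encoded at a locus that SREBP2 drives (miR-29, miR-96, miR-98, miR-182, miR-183, miR-185 and miR-342). Its 6 tested rows were 5 of miR-29 and 1 of miR-183, and the other families of the list had no tested row. Of these 6 rows 2 were above 0 and 4 below, with 0 called, as over all 309 tested rows. Their median was -0.22, or 0.29 with library totals. dre-miR-183-5p, of the miR-96, miR-182 and miR-183 cluster, had a control mean of 11.4 ± 5.45 CPM and a fasted mean of 6.37 ± 3.26 CPM (-0.87, SE 0.54; edgeR adjusted p = 0.606). dre-miR-29b had -0.21 (SE 0.69), or 0.22 with library totals. Relative to the median of all tested rows, miR-29b had -0.22 with TMM and -0.37 with library totals.

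The intronic miRNAs of metabolic host genes, miR-103 and miR-107 of the pantothenate kinase genes and miR-378 of PPARGC1B in mammals, had 3 tested rows with 2 above 0 and 0 called, at a median of 0.04 (0.68 with library totals). These were 2 rows of miR-107 and 1 of miR-103, while miR-378 had no tested row. fru-miR-103 had a control mean of 129 ± 3.01 CPM and a fasted mean of 103 ± 15.0 CPM (-0.32, SE 0.30, edgeR adjusted p = 0.724). Each fasted library lay below each control library, which was so for 27 of 309 tested rows, or 8.74%. With library totals the value of miR-103 was 0.24. Relative to the median of all tested rows it was -0.34 with TMM and -0.35 with library totals. dre-miR-107a-3p_R-1 had 0.04 (SE 0.43).

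Of the 22 tested rows of the hepatic lipid list (miR-21, miR-30, miR-34, miR-122, miR-223 and miR-370) 9 were above 0 and 13 below, with 0 called and a median of -0.15. With library totals 18 were above 0 and the median was 0.42, beside 256 of all 309 tested rows above 0 at a median of 0.59. The named rows of the list were dre-miR-122_R-1 at -0.50 (SE 0.27), dre-miR-30e-5p_R-2 at -0.44 (SE 0.30), fru-miR-21 at -0.78 (SE 0.46) and fru-miR-223_R+1 at 0.41 (SE 0.45). With library totals the values of miR-122 and miR-30e-5p turned to 0.03 and 0.08. Relative to the median of all tested rows, miR-122 had -0.51 with TMM and -0.56 with library totals, and miR-30e-5p -0.46 and -0.51. For dre-miR-30e-5p_R-2 each fasted library lay below each control library, which was so for 27 of 309 tested rows, or 8.74%. Relative to the median of all rows, the medians of the cholesterol efflux, SREBP, host gene and hepatic lipid lists were 0.06, -0.23, 0.03 and -0.16 with TMM and 0.07, -0.30, 0.09 and -0.17 with library totals. That of the miR-33 rows was 0.51 and 0.47.

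**Figure D4:**
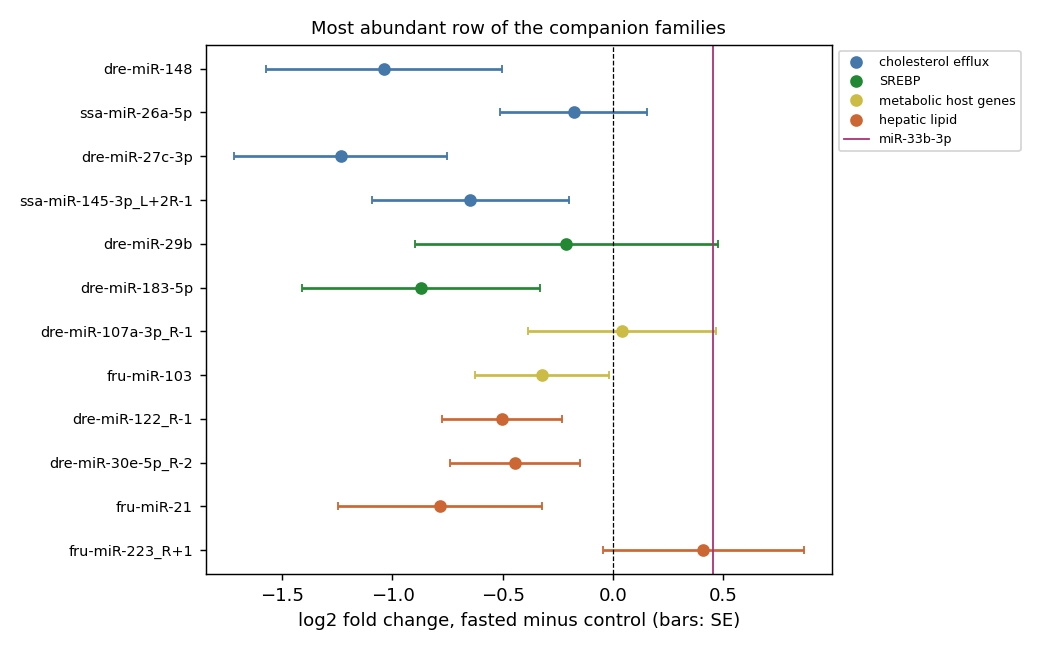
Log2 fold change (fasted minus control, bars for the SE) of the most abundant row of each companion family with tested rows, up to 4 families a list, coloured by list, with a line at the value of miR-33b-3p, 0.45. The named rows lie between -1.24 and 0.41, and none passed the test.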

How the data were processed

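The read summary holds whole-number counts of reads per library, made by the authors, per the file headers. The authors deposited expected counts per sequence in the miRNA table, between 14.4 and 20.8% of a library's values not whole (tolerance 1e-06). The sources used here do not give the rule by which reads were divided, so how far length variants share reads is uncertain. The normalized signal in the same table, made by the authors, is the expected count divided by a library size parameter of 0.506 to 2.30. The submitters' processing notes name Bowtie 1.1.1.

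After rounding to whole numbers, the expected counts were fitted over the whole table with edgeR 4.0.16 in R 4.3.3 (TMM, quasi-likelihood F test, no covariate). filterByExpr (minimum count 10, minimum total 15) kept 309 of 1427 rows, and p-values were adjusted over these. Log2 CPM had a prior count of 2. The script was tested on simulated data, with 5 sets per fold. Of the tested rows given a 2-fold change 1.36% were called in the right direction, and 70% of those given a 4-fold change. Alternatives used DESeq2 1.42.0, limma 3.58.1, other scalings and filters, summed names and left-out libraries. Exact permutation tests used scipy 1.17.1. No pair of libraries was a duplicate (smallest chi-square per degree of freedom 149.8). Wilson intervals and floors cover counting error only, while the 95% intervals of the edgeR fit also hold the spread between libraries. The F test returns no SE, so the SE was taken as the absolute log2 fold change over the square root of F. The intervals called edgeR's here were built from this SE and a t quantile.

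Named rows were all miR-33 rows, the 5 most alike profiles, the most abundant row of up to 4 families per companion list, miR-122 and the neighbours in rank. The miR-33 rows and the lists were chosen with earlier results of these data known.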

Additional observations from a re-analysis of the deposited data

How the results depend on the processing

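Over 15 alternatives miR-33b-3p and miR-33a-3p kept a log2 fold change above 0 and an adjusted p over 0.05. For miR-33b-3p values ran from 0.12 to 0.81 over the 6 fits with 1 library left out and from 0.13 to 1.05 otherwise, with adjusted p between 0.323 and 0.956. For miR-33a-3p they ran from 0.086 to 1.00, with adjusted p between 0.256 and 0.948. The added C row, without the count filter, had 0.25 (edgeR adjusted p = 0.943). The number of rows called was 4 with DESeq2, 11 without the count filter, 0 to 1 with a library left out (1 without control replicate 3) and 0 otherwise. miR-33b-5p ran from 0.53 to 2.16 and PC-3p-1971_492 from 0.53 to 1.37 with a library left out. PC-3p-3978_206 ran from -0.097, without control replicate 6, to 0.52 with a library left out. The 5p to 3p difference ran from -0.31 to 1.21 with a library left out and from 0.013 to 0.42 with other pseudocounts, and was -0.31 without fasted replicate 5 and -0.080 without control replicate 6.

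Replicate numbers 3 and 4 occur in both groups. Deviations from the group means, across 309 rows, correlated at 0.44 between the libraries numbered 3 and at -0.035 between those numbered 4. Between libraries of different numbers the values ran from -0.491 to 0.5, so they cannot decide whether the numbers mark pairs. The main fit took no pairs, as the labels name none. With the replicate block, 0 rows were called. Control replicate 6 and fasted replicate 5 share no number with the other group. The block fit therefore draws its fold changes from replicates 3 and 4 of each group. There miR-33b-3p had 0.13, miR-33a-3p 0.49 and PC-3p-1971_492 1.18 (unadjusted p in this edgeR fit 0.113). miR-33b-5p had -0.14 and PC-3p-3978_206 -0.21, these 2 with the other sign. Low counts limit the 5p and added C rows, which had 3 or fewer in control replicate 6 and fasted replicate 4, the former among the deepest libraries.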
